A study of Mus musculus with 6 samples.

Results

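Breaking down stored triacylglycerol in brown adipose tissue (BAT) needs lipases, proteins that switch the lipases on or off, and the coat of the lipid droplet that decides when the lipases reach their substrate. The 10 genes described here, *Pnpla2*, *Lipe*, *Mgll*, *Abhd5*, *G0s2*, *Plin1*, *Plin2*, *Plin4*, *Plin5* and *Cidec*, encode the best known of these proteins. They were chosen by name, out of 23462 genes on the array, and every probe whose RefSeq accession belongs to them was taken, which gave 14 of 56605 probes. Total RNA of BAT came from 3 wild-type (WT) mice and 3 miR-22 KO mice, all male and 8 weeks old, and each mouse was measured on its own Agilent mouse array with the dye Cy3. The study describes the controls as littermates. The knockout is global, so miR-22 is missing from every cell type of the mouse and not only from brown adipocytes, and the strain, diet and housing temperature of these 6 mice are not given in the sources used here. Arrays of whole tissue were compared, in which fewer adipocytes and less RNA per adipocyte cannot be told apart.

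No difference between WT and miR-22 KO BAT passed the test for any of the 10 genes at the scaling used first, and the groups overlapped for each of them. *Pnpla2*, *Mgll*, *Plin2*, *G0s2* and *Cidec* had means 0.24 to 0.38 lower in KO mice on the log2 scale, within the quartiles of all genes of the same brightness, -0.39 to -0.23. *Plin5* stood on the other side. Its mean was 0.26 higher in KO mice, and after quantile normalization it was 0.47 higher, with an unadjusted p of 0.0061 in limma, but an adjusted p of 0.124.

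In lipolysis, the lipase encoded by *Pnpla2* (Atgl) cuts triacylglycerol, that of *Lipe* (hormone-sensitive lipase) cuts the resulting diacylglycerol, and that of *Mgll* releases the last fatty acid from monoacylglycerol. Perilipins coat the droplet. At rest, perilipin 1 holds the co-activator encoded by *Abhd5*, and protein kinase A frees it after adrenergic stimulation. In brown adipocytes the fatty acids fuel mitochondrial oxidation and activate Ucp1, and mice without Pnpla2 in adipose tissue have large droplets in their BAT.

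The mature sequences of the deleted microRNA are shown because the study turns on their loss, with the seed, bases 2 to 8, in capitals. RefSeq places miR-22-5p at chr11:75463734-75463755 and miR-22-3p at chr11:75463772-75463793, both on the plus strand of GRCm38.p6.
miR-22-5p: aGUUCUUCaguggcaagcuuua
miR-22-3p: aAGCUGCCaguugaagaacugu
No probe for mature miR-22 was among those used here. Its host transcript *Mir22hg* had scaled log2 signals of 1.204, 1.69 and 1.22 in WT mice and 2.02, 2.11 and 2.23 in KO mice, so it was present in both groups and higher by 0.75 in KO mice (limma, adjusted p = 0.102). Whether its probe lies in the deleted segment is not known, so these values do not check the genotype.

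The unit throughout is the scaled log2 signal, the log2 of the background-subtracted intensity of a spot minus the log2 of the 75th percentile of its array. That percentile was 1984, 1435 and 1602 intensity units in WT mice 1 to 3 and 2538, 2633 and 1599 in KO mice 1 to 3. A difference is always the KO mean minus the WT mean on this scale. Brown adipocyte markers were well above background on all arrays for 12 of 12 genes. *Ucp1*, the uncoupling protein of BAT, had scaled signals of 5.51, 5.85 and 5.53 in WT mice and 5.10, 4.999 and 5.65 in KO mice, and *Adipoq*, the adipocyte hormone adiponectin, had 5.45, 5.74 and 5.57 against 5.17, 5.06 and 5.59.

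The arrays stood apart in 2 ways that touch these genes. The scanner software marked 17.1% of the spots of WT 3 and 15.1% of those of KO 1 as outliers, against 4.87 to 6.12% on the other arrays. All spots of the 10 genes were among the bright ones, at percentile 76.7 of their array or above, and 26 of their 84 spots (31.0%) were marked, each for uneven brightness within the spot. The counts were 1, 2 and 9 of 14 in WT mice and 8, 3 and 3 of 14 in KO mice. Among the brightest 10% of all spots, the marked share averaged 44.9% over the arrays. Secondly, the mean of a list of 20 skeletal muscle genes was 2.36, 1.59 and -4.48 in WT mice and -0.14, 3.47 and 1.54 in KO mice, with 13 of the 20 above background on all arrays, so WT 3 carried the least muscle signal. Values are given with marked spots left out and with marked spots kept, because leaving them out removed *Pnpla2* altogether.

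*Pnpla2* had 1 probe, and 5 of its 6 spots were marked. With these spots kept, its scaled signals were 4.48, 4.94 and 4.56 in WT mice and 4.13, 4.22 and 4.75 in KO mice. KO 1 and KO 2 lay below all WT mice and KO 3 above WT 1 and WT 3. The difference was -0.29 ± 0.22 (SE; limma, adjusted p = 0.453), with a 95% interval of -0.80 to 0.22.

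*Abhd5*, whose protein (CGI-58) activates the Pnpla2 lipase, had scaled signals of 2.92, 3.0004 and 3.04 in WT mice. In KO mice they were 3.06, 2.69 and 3.31, a spread that took in all WT values. The difference was 0.06 ± 0.22 without the marked spot of WT 3 (limma, adjusted p = 0.897) and 0.03 with it. A second, dimmer probe of *Abhd5* had 4 of 6 spots marked and differed by 0.31 with them kept (SE 0.30).

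*G0s2* encodes the small protein that binds and inhibits the Pnpla2 lipase. Its scaled signals were 4.29, 4.77 and 4.55 in WT mice and 4.19, 3.77 and 4.50 in KO mice, where the third value of the WT mice and the first of the KO mice came from marked spots. KO 2 was the lowest of all mice, whereas KO 3 lay within the WT range. *G0s2* had the most negative mean difference of the 10 genes, -0.40 ± 0.33 without the marked spots (limma, adjusted p = 0.543) and -0.38 ± 0.22 with them, and its widest interval ran from -1.24 to 0.45.

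*Lipe* showed the smallest difference with marked spots kept. Its scaled signals were 2.84, 2.47 and 2.74 in WT mice and 2.61, 2.71 and 2.76 in KO mice, and every KO value fell inside the WT range. The difference was 0.01 with all spots and 0.04 ± 0.18 without the marked spot of WT 3 (95% interval -0.40 to 0.47). The sign of such a small value turned under several settings, normexp background correction among them.

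*Mgll* was measured by 2 probes of similar brightness. The brighter had scaled signals of 4.34, 4.63 and 4.31 in WT mice and 3.73, 3.94 and 4.47 in KO mice, of which KO 1 was marked. KO 1 and KO 2 lay below the WT mice and KO 3 between them. The difference was -0.38 ± 0.22 with all spots (limma, adjusted p = 0.356) and -0.22 ± 0.22 without that spot, and the other probe gave -0.13 with all spots.

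The perilipins did not move as a family. *Plin1*, the main droplet coat of adipocytes and the target of protein kinase A, had scaled signals of 3.38, 4.19 and 3.68 in WT mice and 3.44, 3.33 and 3.99 in KO mice, with no spot marked. Its WT mice alone spanned more than the difference of -0.16 ± 0.27, which turned to 0.06 without WT 2 and to 0.07 after quantile normalization. *Plin4*, found on small droplets of adipocytes, had 3.87, 3.997 and 4.02 against 3.94, 3.68 and 4.14, again with no spot marked. Its difference was -0.04 ± 0.16, and it turned to 0.20 after quantile normalization and to 0.08 without KO 2.

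*Plin2*, the coat protein of droplets in most cell types, had scaled signals of 4.45, 4.72 and 4.36 in WT mice and 4.10, 4.09 and 4.63 in KO mice, with WT 3 and KO 1 marked. KO 3 again lay among the WT mice and the other KO mice below them. The difference was -0.24 ± 0.20 with all spots and -0.22 ± 0.26 without the marked ones. Its second probe pointed the other way, at 0.34 (SE 0.40) with all spots, but was far dimmer and had 4 of 6 spots marked, WT 3 being lowest at 0.30.

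*Plin5* encodes the perilipin of oxidative tissues, which links droplets to mitochondria and controls the access of the Pnpla2 lipase. No spot of its brighter probe was marked. Its scaled signals were 2.89, 3.29 and 3.10 in WT mice and 3.22, 3.20 and 3.66 in KO mice, so that only WT 2 reached the KO range. Before scaling, the signals were 14695, 14073 and 13785 units in WT mice and 23569, 24209 and 20176 in KO mice, and these did not overlap. The same held for *Abhd5*, so 2 of the 10 genes were without overlap before scaling. The median difference of all genes was 0.35 there. Of the other genes of the pathway, compared below, 27 of 106 were also without overlap before scaling. The share over all genes was not tallied. The scaled difference was 0.26 ± 0.19 (limma, adjusted p = 0.470), with a 95% interval of -0.18 to 0.71.

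The second *Plin5* probe had 4 of its 6 spots marked. With them kept its scaled signals were 2.96, 2.79 and 3.38 in WT mice and 3.57, 3.499 and 3.01 in KO mice. KO 1 and KO 2 were above all WT mice but KO 3 was below WT 3, the reverse of the order at the brighter probe, where KO 3 was highest. Its difference was 0.32 (SE 0.23). *Plin5* is also expressed in skeletal muscle, and with the mean of the muscle list as a covariate its brighter probe differed by 0.28.

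*Cidec* encodes the protein (Fsp27) that fuses droplets and favours the large droplet of white adipocytes. It had scaled signals of 4.51, 4.91 and 4.64 in WT mice and 4.24, 4.13 and 4.75 in KO mice, without a marked spot. KO 1 and KO 2 were below all WT mice and KO 3 was above WT 1 and WT 3. The difference was -0.31 ± 0.21 (limma, adjusted p = 0.441; 95% interval -0.80 to 0.18). White adipocyte markers were measured for 9 genes, 7 above background on all arrays and *Hoxc10* and *Tcf21* on none, and their mean was -3.36, -3.44 and -3.31 in WT mice and -2.996, -2.86 and -2.54 in KO mice. Of the 7, *Nnat* and *Mest* were higher in all KO mice and the other 5 overlapped. The list means differed by 0.57. These genes were mostly dim but ranged widely, with *Retn* at 2.85 and *Hoxc10* at -8.06 in WT 1, so no single brightness matches the list. The median difference of all genes near a scaled signal of -3.25 was 0.16, with quartiles of -0.10 and 0.42. The part of white adipocytes in the values of *Cidec* was not tested.

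**Figure D1:**
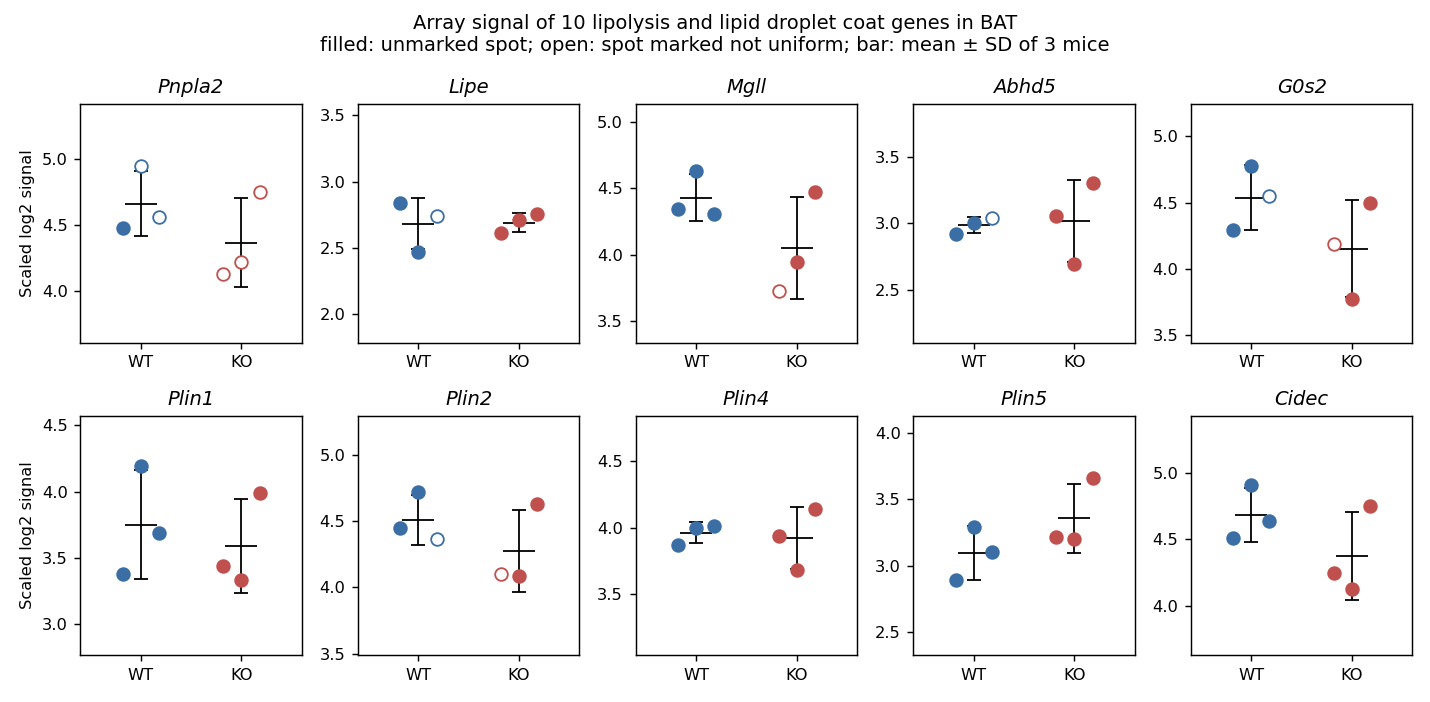
Scaled log2 signal (y axis) of the brightest probe of each of the 10 genes in 3 WT and 3 miR-22 KO mice, marked spots kept. Each point is a mouse in the order 1 to 3, open points are marked spots and bars are the mean ± SD of 3 mice. KO 3, the rightmost KO point, lies above KO 1 and KO 2 in all 10 panels on this scale, and the groups overlap in each.

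In counts, 0 of the 9 testable genes were called lower and 0 higher in KO mice by limma, at an unadjusted p under 0.05 and with marked spots left out. Over all 14711 genes tested, 8.82% were downregulated and 10% upregulated, and 0.184% passed after adjustment, none of them among these 9. With marked spots kept, 0 of 10 were called in either direction, beside 11.1% of 16110 genes downregulated, 9.47% upregulated and 0.472% past the adjusted threshold. SAM, the program of the study's methods, and the methods' t-test also called 0 of these genes. The groups overlapped for 10 of 10, whereas 28.7% of all genes did not overlap. The median difference was -0.16 over the 9 genes, 6 of them below 0, and -0.03 over all genes. It rested on single mice, at -0.26 without WT 1, -0.02 without WT 2, -0.09 without KO 1 and 0.05 without KO 2, where 5 to 9 genes could be tested. With marked spots kept it was -0.20 over the 10 genes, 7 of them below 0, and -0.06 over all genes, and it ran from -0.39 without KO 3 to -0.09 without KO 2, with -0.31 without WT 1, -0.11 without WT 2 and -0.12 without KO 1.

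**Figure D2:**
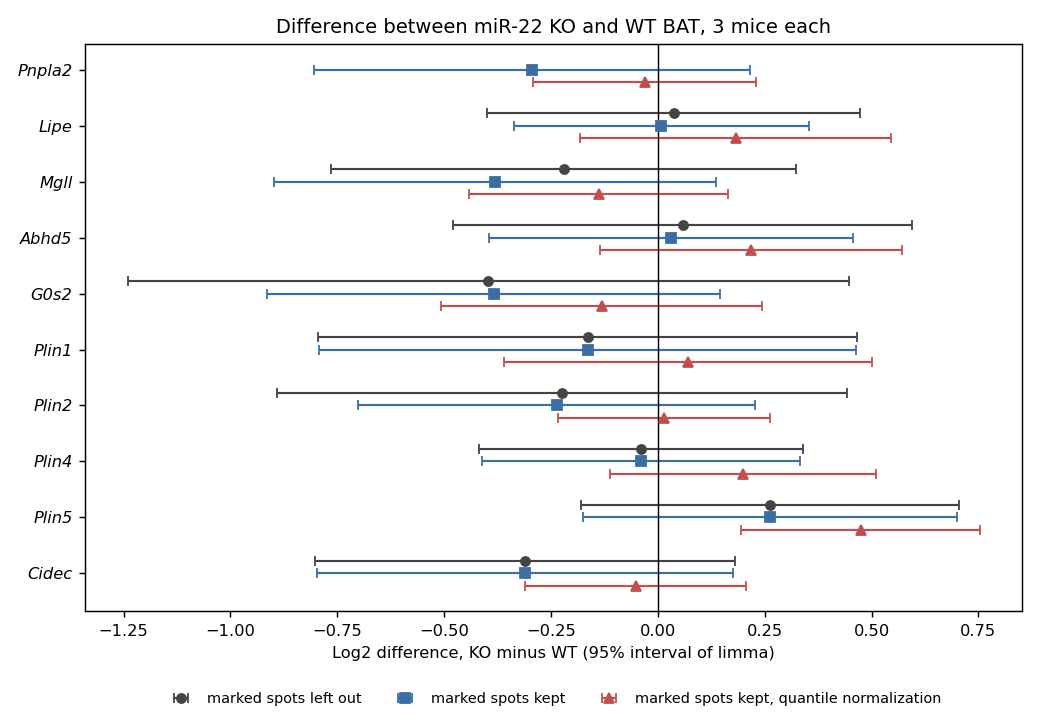
Log2 difference, KO minus WT, of the 10 genes with its 95% interval from limma, for 3 mice a group. Circles leave marked spots out (*Pnpla2* could not be tested), squares keep them and triangles keep them after quantile normalization. Only the interval of *Plin5* after quantile normalization, around 0.47, lies wholly on one side of 0.

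On the scaled signal, KO 3 was above KO 1 and KO 2 for each of the 10 genes at the brightest probe. The scaled median of the 10 was 4.08, 4.41 and 4.16 in WT mice and 3.83, 3.73 and 4.31 in KO mice. *Ucp1* and *Adipoq*, outside this set, were also highest in KO 3 among the KO mice. Before scaling, KO 3 had the lowest median of the KO mice, at 15.14, 15.09 and 14.95 in KO 1 to KO 3. The 75th percentile used for scaling was 2538, 2633 and 1599 in these mice. Without KO 3 and with marked spots kept, 5 of the 10 genes were downregulated at an unadjusted p under 0.05, beside 13.7% of all genes. These were *Mgll* (-0.59), *G0s2* (-0.56), *Cidec* (-0.50), *Pnpla2* (-0.49) and *Plin2* (-0.42), and none passed after adjustment (limma, lowest adjusted p = 0.182). With marked spots left out as well, *Cidec* alone was called out of 6 testable genes, beside 10.3% of all genes. The count of downregulated genes at this scaling therefore rested on KO 3. The 5 genes called with marked spots kept all belong to the brightest group described below, at 4.2 or more. With all mice in, 99.4% of the genes of that group had a KO mean below the WT mean. The share called among genes of that brightness without KO 3 was not tallied, and the 13.7% is mostly of dimmer genes. Normexp background correction with marked spots kept called 1 of 10, *Mgll* at -0.55, beside 9.66% of all genes.

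The median of the 10 genes without scaling was 15.03, 14.90 and 14.81 (log2 of the signal) in WT mice and 15.14, 15.09 and 14.95 in KO mice. The median of their differences was 0.21 before scaling, beside 0.35 over all genes, and the 75th percentile differed up to 1.83-fold between arrays. *Cidec* had 45081, 43067 and 39843 units in WT mice and 48070, 46019 and 42901 in KO mice. Without any scaling its difference was 0.10, and *Plin5* was upregulated by 0.67 (limma, adjusted p = 0.193), beside 18% of all genes.

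Brightness of the signal went with the difference in the whole table, and the 10 genes followed it in part. Genes were grouped by their mean scaled log2 signal over the 6 mice, with group limits chosen after the values were seen and marked spots kept. Of the 464 genes at 4.2 or more, 99.4% had a KO mean below the WT mean, and their median difference was -0.32. *Pnpla2*, *Mgll*, *Plin2*, *G0s2* and *Cidec* belong there, with differences from -0.38 to -0.24 and a median of -0.31. Of the genes of that brightness, between 26.5% (for *G0s2*) and 73.5% (for *Plin2*) had a lower difference than these 5. *Cidec* was near the middle, with 52.2% lower.

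*Plin1* and *Plin4* belong to the 564 genes from 3.5 to 4.2, whose median difference was -0.30, and 79.4% and 92.6% of these genes had a lower difference than *Plin1* and *Plin4*. *Lipe*, *Abhd5* and *Plin5* belong to the 1365 genes from 2.5 to 3.5, whose median was -0.24. There 86.7% of the genes had a lower difference than *Lipe*, 88.4% a lower one than *Abhd5* and 97.4% a lower one than *Plin5*. Below 2.5 lay 13717 genes, whose median difference went from 0.19 at a scaled signal near -3.75 to -0.19 near 2.25. After quantile normalization the median differences of the 3 brighter groups were -0.05, -0.06 and -0.04. The differences of the 10 genes then ran from -0.14 (*Mgll*) to 0.47 (*Plin5*), with a median of 0.04 beside -0.03 over all genes. What makes the difference move with brightness was not tested.

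Only *Plin5* was called upregulated under an alternative. After quantile normalization it was upregulated by 0.47 ± 0.12, beside 7.95% of all genes. Its groups did not overlap there, which was also so for 25 of 87 other genes of the pathway, compared below. The share of all genes without overlap was not tallied for this normalization. In the log2 values that the authors deposited it was upregulated by 0.48 (limma, adjusted p = 0.104), beside 8.56% of all genes. This was close to the 0.47 after quantile normalization. The normalization of the deposited values is not stated, so these settings need not be separate from each other. Over the 36 settings computed, its difference ran from 0.11, without KO 3 and the marked spots, to 0.67, without scaling, and was above 0 in each. It was past the unadjusted threshold in 5 of these and past the adjusted threshold in 0, with adjusted p from 0.104 to 0.798. WT 1 and WT 2 lay in the first row of the slide and the other mice in the second. With the row as a block, which leaves WT 3 against the KO mice, *Plin5* differed by 0.25 and was not called, and with marked spots kept the 10 genes ran from -0.40 (*G0s2*) to that value with 0 called.

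Each gene was also set against the median of the other 9 on the same array, a ratio that does not depend on a common scaling factor and was chosen after the values were seen. *Plin5* was below that median by 1.40, 1.34 and 1.21 in WT mice, so its log2 ratios were -1.40, -1.34 and -1.21, and they were -0.72, -0.57 and -0.82 in KO mice. All KO mice were higher, and the means differed by 0.61. *Abhd5* had ratios of -1.37, -1.63 and -1.27 in WT mice and -0.88, -1.08 and -1.17 in KO mice, again without overlap and 0.38 higher. *Cidec* was lower by a small amount, with 0.63, 0.71 and 0.62 in WT mice against 0.51, 0.44 and 0.60 in KO mice.

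The other 7 genes overlapped in this ratio, among them *Plin4* and *Lipe*, whose means were higher in KO mice by 0.38 and 0.36, as much as that of *Abhd5*. Groups that did not overlap were thus found for 3 of 10 genes, beside 21.9% of all genes set against the same median, and KO mice were above in 2 of 10, beside 18.6%. A ratio of this kind shows unequal change within the set and not which gene changed. At the second probes, that of *Abhd5* was also without overlap, 0.66 higher in KO mice, while the second *Plin5* probe, also 0.66 higher, overlapped because KO 3 was at -1.46 and WT 3 at -0.93.

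**Figure D3:**
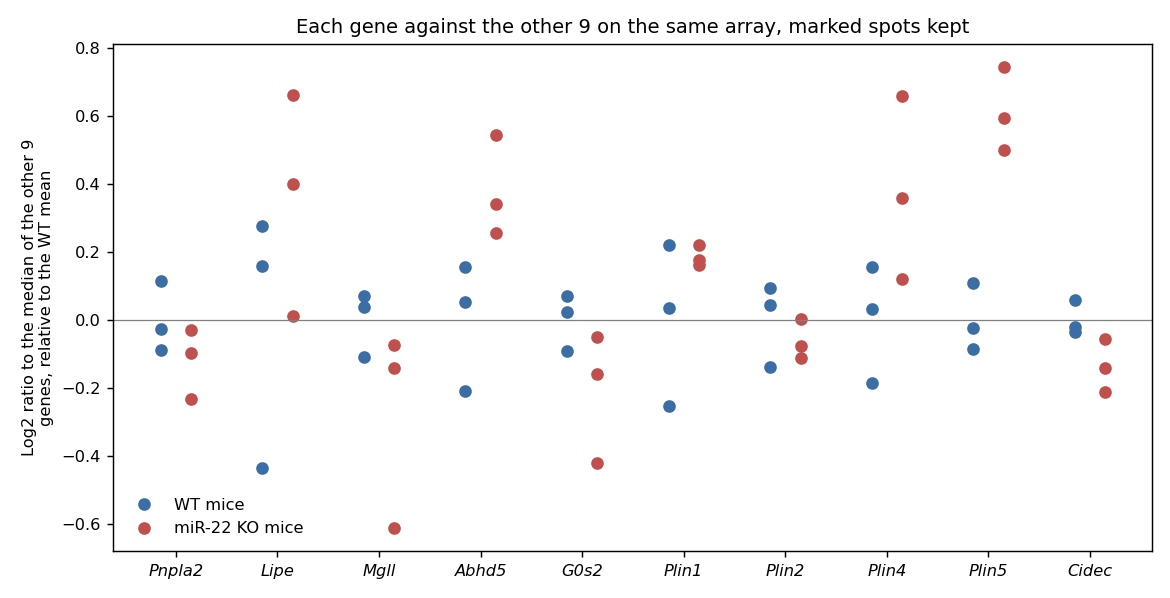
Log2 ratio of each gene to the median of the other 9 genes on the same array, drawn relative to its WT mean, marked spots kept. Each point is a mouse, 3 WT (blue) and 3 miR-22 KO (red). The KO points of *Plin5* and *Abhd5* lie wholly above the WT points and those of *Cidec* wholly below.

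Several of these genes are known targets of Pparg, the nuclear receptor that drives adipocyte genes and binds pairs of the hexamer AGGTCA. Promoter windows of 300 bases, 250 before to 50 after the annotated start, were found in RefSeq (GRCm38.p6) for all 10 genes, 14 windows in all. The hexamer, AGGTCA on the same strand or TGACCT for the other strand, was in 4 of 14 windows, those of *Plin2*, *Abhd5* and *Plin5* (in both its windows), beside 16.3% of 32851 windows of all genes. No window of the 10 genes held 2 hexamers spaced by 1 base, a pattern in 0.0396% of all windows. The 250 bases before the start are shown for these 3 genes because they hold the hexamer, and nothing about the differences is drawn from it. The hexamer is in capitals and the regions are chr17:56117549-56117798 (minus strand), chr9:122351366-122351615 (plus strand) and chr4:86670060-86670309 (minus strand).
Plin5: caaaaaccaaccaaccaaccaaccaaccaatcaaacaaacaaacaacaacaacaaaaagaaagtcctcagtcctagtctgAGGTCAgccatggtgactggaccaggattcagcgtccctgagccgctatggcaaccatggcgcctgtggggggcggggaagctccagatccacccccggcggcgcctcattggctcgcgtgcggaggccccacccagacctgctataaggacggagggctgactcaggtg
Abhd5: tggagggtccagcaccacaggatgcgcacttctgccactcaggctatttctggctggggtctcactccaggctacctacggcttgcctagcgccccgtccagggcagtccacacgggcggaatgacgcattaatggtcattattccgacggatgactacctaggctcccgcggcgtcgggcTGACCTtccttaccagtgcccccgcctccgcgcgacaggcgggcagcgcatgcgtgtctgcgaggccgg
Plin2: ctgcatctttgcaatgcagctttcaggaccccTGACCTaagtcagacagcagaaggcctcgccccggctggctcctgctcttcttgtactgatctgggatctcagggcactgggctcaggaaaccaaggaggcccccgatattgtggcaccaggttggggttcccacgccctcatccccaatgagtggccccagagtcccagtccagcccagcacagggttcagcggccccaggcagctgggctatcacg
The hexamer starts 170 bases before the start in *Plin5*, 69 in *Abhd5* and 218 in *Plin2*. *Plin4*, the gene next to *Plin5* on chromosome 17, had none in its window. A match is a description of the letters only, and binding of a factor was not measured here.

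Other genes of the pathway were compared in 5 lists with 110 members in all. With marked spots left out, 87 could be tested, of which limma called 5 lower and 7 higher in KO mice at an unadjusted p under 0.05, shares below the 8.82 and 10% of all genes, and 0 passed after adjustment. With marked spots kept, 13 of 106 were downregulated and 6 upregulated, beside 11.1 and 9.47% of all genes, and again 0 passed after adjustment. That 13 was 26 without KO 3, 5 without KO 1 and 8 without WT 2, and with trend and robust eBayes it was 17, of which *Klf15*, a transcription factor named for this call, passed after adjustment at -0.66 (limma, adjusted p = 0.0414). With marked spots left out, the counts also moved with single mice, as did those over all genes. Without KO 1, 1 of 84 was downregulated, beside 885 of 14518 over all genes. Without KO 3, 9 of 71 were downregulated, beside 1375 of 13314. Without WT 1, 3 of 74 were upregulated, beside 1067 of 12697.

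Among 25 other lipid droplet proteins, 19 could be tested, 1 fell and 3 rose, with a median difference of -0.11. *Cideb*, a relative of *Cidec* known from liver droplets, rose by 0.65 ± 0.19 (limma, adjusted p = 0.161), from 0.43, 0.87 and 0.88 in WT mice to 1.14, 1.37 and 1.61 in KO mice. *Hsd17b13*, another droplet protein of liver, rose by 0.92 ± 0.29 at a dim signal. *Tmem159*, which helps droplets form, rose by 0.71 with 2 unmarked mice in each group but with marked spots kept differed by 0.47 with overlap and was not called (limma, adjusted p = 0.254), and *Ubxn8*, a membrane adaptor that reaches droplets, fell by 0.47. With marked spots kept, *Cidea*, the droplet fusion protein of brown adipocytes, differed by -0.33 (limma, adjusted p = 0.391) with overlapping groups.

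Among 21 other acylglycerol lipases and related enzymes, not all of which act on acylglycerols, 14 could be tested and their median difference was -0.06. *Abhd3* fell by 0.38 ± 0.12 (limma, adjusted p = 0.175), from -1.33, -1.32 and -1.28 to -1.71, -1.69 and -1.67. *Pnpla7*, a lysophospholipase related to *Pnpla2*, fell by 0.38 ± 0.13, and *Ces2a*, a carboxylesterase well above background on 3 of the 6 arrays, rose by 0.53. Lipoprotein lipase, *Lpl*, which brings fatty acids in from the blood, differed by -0.29 with marked spots kept and overlapping groups.

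Of 33 genes of the signalling that controls lipolysis, 32 could be tested, 2 fell and 2 rose, with a median of -0.04. *Hcar1*, the lactate receptor that restrains lipolysis, had -0.08 and -0.28 in the unmarked WT mice and -0.85 and -0.83 in the unmarked KO mice, and fell by 0.66 (limma, adjusted p = 0.174). With marked spots kept it was not called, at -0.26 with overlapping groups. *Opa1*, known in mitochondria and as a droplet anchor for protein kinase A, fell by 0.44 ± 0.16, but with marked spots kept another probe stood for it and gave -0.27 without a call (limma, adjusted p = 0.360). *Adcy5*, an adenylyl cyclase, rose by 0.50 ± 0.15, from -1.997, -1.96 and -2.03 to -1.70, -1.49 and -1.31.

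*Adrb3*, the main adrenergic receptor of mouse adipocytes, had scaled signals of 3.27, 3.21 and 2.91 in WT mice and 2.40, 2.88 and 2.62 in KO mice with marked spots kept. There it fell by 0.50 (limma, adjusted p = 0.193) without overlap, as did not overlap 28.7% of all genes. With marked spots left out, 2 mice a group remained, and the difference of -0.49 had an unadjusted limma p of 0.0517. *Adrb3* was named after its values were seen, for its role upstream of the 10 genes.

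Of 14 genes for uptake and transport of fatty acids and glycerol, 8 could be tested and 1 was called at the unadjusted threshold, *Got2*, a mitochondrial aminotransferase also described at the plasma membrane as a fatty acid binding protein, which rose by 0.70 ± 0.27 (limma, adjusted p = 0.232). Its signals were 1.35, 1.30 and 1.15 in WT mice and 1.35, 2.34 and 2.21 in KO mice, so KO 1 was level with the WT mice. Of 17 transcription factors that act on these genes, 14 could be tested and 0 were called, with a median of -0.15. *Ppargc1a*, *Ppargc1b* and *Klf15* could not be tested there. With marked spots kept, all 17 could be tested, and 2 were called lower and 0 higher, with a median of -0.27. *Ppargc1a* then had 3.76, 3.39 and 3.52 in WT mice and 2.95, 2.87 and 3.10 in KO mice. Its groups did not overlap, as for 28.7% of all genes. *Epas1*, a hypoxia-inducible factor, had the smallest p there, with 4.26 and 4.55 in the unmarked WT mice and 3.96 and 3.87 in the unmarked KO mice, a difference of -0.49 (limma, adjusted p = 0.276) that was -0.28 with marked spots kept. *Pparg* differed by -0.33 (limma, adjusted p = 0.322), from 4.02, 4.22 and 4.06 to 3.69, 3.59 and 4.03, with overlapping groups.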

How the data were processed

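Scanner output of 6 arrays was deposited as intensity values of Agilent Feature Extraction, background-subtracted but not scaled between arrays (version 10.7 in the submitters' processing notes, another in the headers). The log2 values of a processed table that the authors deposited (27497 probes, normalization not stated) served as an alternative. Probes were named through their RefSeq accession (33767 matched). Signals were divided by the 75th percentile of each array. Probes well above background on at least 3 arrays, with at least 2 unmarked values per group, were kept, and the brightest stood for its gene. Groups were fitted over all genes by limma 3.58.1 (lmFit, eBayes; R 4.3.3), two-sided and unpaired, with Benjamini-Hochberg adjustment over all tested genes. The unadjusted threshold of 0.05 is that of the study's methods. No label pairs the mice, and 3 arrays per group limit the precision. Steps were tested on simulated data.

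The genes, the pathway and marker lists and the tests were chosen with earlier results of these data known. Named are the 10 genes, up to 4 genes per pathway list and direction by smallest p under 0.05 (otherwise the gene with the smallest p), *Ucp1*, *Adipoq* and the marker lists. *Mir22hg*, *Adrb3*, *Pparg*, *Cidea* and *Lpl* were added for their roles. *Ppargc1a* and *Ppargc1b* were added because they could be tested only with marked spots kept. A gene that this rule would name is not reported here. Marker lists were nerve, endothelium, macrophages, lymphocytes, erythroid cells, skeletal muscle and adipocytes (brown, white and all). The 7 lists other than white adipocyte and skeletal muscle gave two-sided exact permutation p from 0.2 to 0.8, skeletal muscle 0.7 and white adipocyte 0.1, the smallest that 3 against 3 mice allow.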

Additional observations from a re-analysis of the deposited data

How the results depend on the processing

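Under the alternatives 308 differences of the 10 genes were computed, by limma except where SAM or the methods' t-test was the alternative. Of these, 263 kept their direction and their side of the unadjusted threshold, 12 went past it and 33 changed sign, none of them from a called value. The adjusted threshold was passed by 0 of the genes under every setting run. The number downregulated was 0, with a range of 0 to 1 when each mouse was left out. It was 1 with marked spots kept and normexp, and 5 with marked spots kept and KO 3 left out, the latter chosen after the data were seen, as were the other settings with marked spots kept, apart from keeping them alone or with quantile normalization. The number upregulated was 0, and it was 1 (*Plin5*) after quantile normalization with marked spots kept or left out, in the authors' values with marked spots kept or left out, and with marked spots kept and no scaling. The median difference of -0.16 became 0.19 in the authors' values, 0.21 there without marked spots and 0.21 with marked spots kept and no scaling (all genes 0.35). The authors' table holds 7 of the genes, without *Pnpla2*, *Plin2* and *G0s2*, and the median of these 7 was -0.04 in the scaled signals. The cause of these changes was not tested.

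Pathway genes downregulated numbered 5, and 13 with marked spots kept, 8 with these and quantile normalization, 9 with normexp, 8 with a filter of all arrays, 9 with trend and robust eBayes, 0 with the slide row as a block, and 1 to 9 when each mouse was left out. Those upregulated numbered 7, and 12 when every probe was counted, 3 with the methods' t-test, 1 with the row as a block and 3 to 8 when each mouse was left out. Counts over all genes moved with the settings too. The row as a block called 311 of 13092 genes lower and 799 higher, beside 1297 and 1476 of 14711 at first.

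Without scaling and with marked spots kept, the differences turned to 0.11 for *Pnpla2*, 0.029 for *Mgll*, 0.24 for *Plin1*, 0.17 for *Plin2*, 0.37 for *Plin4*, 0.025 for *G0s2* and 0.098 for *Cidec*. Quantile normalization, with marked spots kept or left out, gave 0.071 for *Plin1* and 0.20 for *Plin4*, and with them kept 0.015 for *Plin2*. The authors' values, likewise in both forms, gave 0.080 for *Plin1* and 0.21 for *Plin4*. *Plin4* was 0.0031 with normexp and 0.0067 with the muscle covariate, both also with marked spots kept, 0.080 with marked spots kept and KO 2 left out, and -0.15 to 0.080 when each mouse was left out. *Plin1* ran from -0.37 to 0.057 when each mouse was left out and was 0.057 with marked spots kept and WT 2 left out. *Lipe* was -0.062 with normexp, and with marked spots kept it was -0.074 with normexp, -0.048 with the row as a block, -0.098 without WT 2 and -0.025 without KO 3. *Abhd5* ran from -0.086 to 0.22 when each mouse was left out, and with marked spots kept it was -0.024 with the row as a block, -0.0031 without WT 1 and -0.11 without KO 3. Where spots are left out or a mouse is dropped, another probe can stand for a gene. No paired analysis was possible because the labels give the groups no shared replicate numbers.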
